A study of Mus musculus with 52 samples.

Results

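The 8 erythroid genes described here are Epor, Klf1, Tfrc, Alas2, Hba-a1, Hba-a2, Slc4a1 and Rhag. They were chosen by name, with earlier results of these data known, out of 39144 genes listed in the expression tables. The study asked what the loss of the long noncoding RNA locus Tug1 does across mouse tissues. Of its 52 samples, 46 lay behind the tables. Spleen, heart, liver, eyes and cultured embryonic fibroblasts (MEFs, at passage 2) had 3 wild-type and 3 Tug1-/- samples each, prostate had 3 and 2, and testes had 4 of either genotype plus 3 rescue samples. Testes of hybrid mice, 6 samples, were not analysed here, and a comparison of brain, read from the same table, came from libraries that have no labelled sample in the series.

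All labelled samples were male, and the labels state no age. Tug1-/- mice were homozygous for the allele Tug1_tm1.1Vlcg, in which a lacZ reporter takes the place of the Tug1 gene body. Outside testes both genotypes were on a mixed C57BL/6J/129S6 background crossed back to C57BL/6J and without the Neo selection cassette. In testes the wild-type mice lacked Neo, whereas Tug1-/- and rescue mice are labelled with Neo and LacZ, so that genotype and cassette label cannot be told apart there. The study's methods describe breeding in which the cassette was removed before the colony was expanded, and the labels of these testes differ from that. Rescue mice were Tug1-/- and also carried a Tug1 transgene, tg(Tug1), and the activator CAGs-rtTA3, which is driven by a ubiquitous promoter and was switched on by doxycycline in the food. The mean Tug1 level of Tug1-/- samples was 0.0825% (liver) to 2.21% (testes) of the wild-type mean, and in rescue testes it was 1.60 TPM (transcripts scaled to gene length and to the library's total) against 40.1 TPM in wild-type testes. Marker genes of each tissue summed to 2.98-fold (brain) up to 20254.8-fold (testes) more in that tissue than in any other tissue.

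Every level below is the authors' mean TPM of a genotype in a tissue, a scale per transcript length, so that levels of different genes can be compared. No value of a single mouse and no error was in the columns used, so whether a difference between 2 means was larger than the spread between mice could not be judged, and no test was made. A ratio is the Tug1-/- mean over the wild-type mean, each with 0.1 TPM added. A gene was counted as past the fold limit at a ratio of at least 1.5, or at most its inverse, where the mean of 1 or both genotypes reached 1 TPM.

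Red cells form from precursors in bone marrow and, in the adult mouse, also in the red pulp of the spleen. The hormone erythropoietin, acting through its receptor, keeps these precursors alive, and transcription factors of the GATA and KLF families turn on the genes for globin, haem synthesis, iron uptake and the red cell membrane. Mature red cells have no nucleus but still carry some globin RNA when young, so globin transcripts in other organs mark blood left in the tissue as well as cells that make them. The spleen filters blood and holds red cell precursors, megakaryocytes, lymphocytes and macrophages side by side. In such bulk tissue, fewer cells of a type and less RNA per cell cannot be told apart.

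The genes lie on 6 chromosomes of the GRCm38 assembly, with coordinates here from the gene annotation. Klf1 (ENSMUSG00000054191) is at chr8:84901928-84905291 on the plus strand, Epor (ENSMUSG00000006235) at chr9:21958897-21963506 on the minus strand, and Tfrc (ENSMUSG00000022797) at chr16:32608920-32632794 on the plus strand. Alas2 (ENSMUSG00000025270) is at chrX:150547375-150570638 and Rhag (ENSMUSG00000023926) at chr17:40811126-40840754, both on the plus strand. Slc4a1 (ENSMUSG00000006574) is at chr11:102348824-102366203 on the minus strand. The alpha globin genes are neighbours on the plus strand of the same chromosome, Hba-a1 (ENSMUSG00000069919) at chr11:32283511-32284465 and Hba-a2 (ENSMUSG00000069917) at chr11:32296489-32297298.

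The alpha globin pair are near copies. The longest open reading frames of their transcripts both ran over 429 bases and differed at 1 base. Of all windows as long as a sequencing read, 56.3% of those in the Hba-a1 transcript of 699 bases also occurred in the Hba-a2 transcript, and 74.2% of those in the Hba-a2 transcript of 554 bases occurred in Hba-a1. Since only uniquely mapped reads were counted, how the level was split between Hba-a1 and Hba-a2 is uncertain, and their sum is given beside each of them.

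RefSeq promoter sequences (GRCm38.p6) were available for 7 of the 8 genes, without Slc4a1. GATAA, the core of the site that GATA transcription factors read, was searched on both strands together with its reverse complement TTATC in the 250 bases before the RefSeq start. It was present in 6 of these 7 promoters, without Tfrc, and in 23.0% of 27025 mouse promoters. CCNCNCCC, a form of the CACC box that KLF factors bind, was present in 3 of the 7 and in 45.6% of the same 27025 promoters. These were the first promoter listed for each gene, and those of a single chromosome were left out. The stretches for 5 of the genes are shown 5' to 3' on the plus strand, up to the base before the gene start of the annotation, to show where the GATAA match of globin, haem, regulator and membrane genes lies. Capitals mark GATAA or TTATC, and these stretches hold no CCNCNCCC. Those of Hba-a1 (chr11:32283422-32283510) and Hba-a2 (chr11:32296242-32296488) share a run of 86 identical bases that includes the match. Alas2 covers chrX:150547167-150547374, Klf1 chr8:84901732-84901927 and Rhag chr17:40810899-40811125. A match of letters describes the sequence and was not tested as a site.
Hba-a1: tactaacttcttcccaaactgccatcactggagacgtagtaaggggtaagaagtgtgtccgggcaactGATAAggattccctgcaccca
Hba-a2: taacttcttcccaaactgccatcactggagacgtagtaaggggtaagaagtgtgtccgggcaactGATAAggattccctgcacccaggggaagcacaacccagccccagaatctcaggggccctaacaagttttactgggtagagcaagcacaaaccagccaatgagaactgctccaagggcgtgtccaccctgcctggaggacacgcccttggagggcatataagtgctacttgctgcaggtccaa
Alas2: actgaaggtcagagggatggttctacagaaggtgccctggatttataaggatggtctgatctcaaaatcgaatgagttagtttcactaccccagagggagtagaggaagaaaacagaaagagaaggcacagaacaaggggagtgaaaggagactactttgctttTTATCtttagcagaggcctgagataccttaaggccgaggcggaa
Klf1: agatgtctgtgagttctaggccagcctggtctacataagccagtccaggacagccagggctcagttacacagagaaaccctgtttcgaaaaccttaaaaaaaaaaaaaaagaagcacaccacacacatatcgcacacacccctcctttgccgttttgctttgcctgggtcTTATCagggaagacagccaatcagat
Rhag: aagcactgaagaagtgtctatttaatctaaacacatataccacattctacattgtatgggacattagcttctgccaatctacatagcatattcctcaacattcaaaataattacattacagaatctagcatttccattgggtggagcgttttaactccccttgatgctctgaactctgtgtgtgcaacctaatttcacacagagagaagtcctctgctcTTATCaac

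In spleen all 8 erythroid genes had a higher mean in Tug1-/- than in wild-type mice, and all 8 were past the fold limit. Their ratios lay between 1.89 and 2.72, with a median log2 ratio of 1.01, whereas the median over all genes tested in spleen was -0.11. Of 17260 genes tested, 932 (5.4%) were past the limit on the higher side. The 8 genes were chosen with earlier results of these data known, so their count is no independent evidence of a direction. The order from lowest to highest ratio was Hba-a2, Hba-a1, Epor, Alas2, Tfrc, Slc4a1, Klf1 and Rhag. Without values of single mice, which neighbours in this order differ beyond their spread could not be told.

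Epor, the receptor for erythropoietin, had a mean of 28.9 TPM in wild-type against 56.0 TPM in Tug1-/- spleen, a ratio of 1.93 (log2 0.95). Klf1, the transcription factor that turns on adult beta globin and many other red cell genes, had means of 51.5 and 129 TPM, a ratio of 2.51 (log2 1.33). Tfrc, the transferrin receptor through which cells take up iron, had means of 96.1 and 196 TPM, a ratio of 2.04 (log2 1.03). The receptor, the regulator and the iron importer thus all stood higher in the Tug1-/- mean, Klf1 by the most of the 3. Epor and Klf1 were also the least abundant of the 8 in normalised read counts over the spleen libraries, with means of 1279 and 2103 reads.

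Alas2, the erythroid enzyme of the first step of haem synthesis, had a mean of 615 TPM in wild-type against 1226 TPM in Tug1-/- spleen, a ratio of 2.00. Hba-a1, the most abundant of the 8 genes, had means of 3614 and 6922 TPM, a ratio of 1.92 (log2 0.94). Hba-a2 had means of 694 and 1309.7 TPM, a ratio of 1.89 (log2 0.92). Together the alpha globins summed to 4308 TPM in wild-type against 8232 TPM in Tug1-/- spleen. Hba-a1 held 83.9% of this sum in wild type and 84.1% in Tug1-/-, so that the split was nearly the same in both means.

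Slc4a1, the band 3 anion exchanger of the red cell membrane, had a mean of 332 TPM in wild-type against 746 TPM in Tug1-/- spleen, a ratio of 2.25 (log2 1.17). Rhag, a membrane glycoprotein at the core of the Rh complex, had means of 44.1 and 120.2 TPM, a ratio of 2.72 (log2 1.44), the highest ratio of the 8. Both membrane genes had higher ratios than the globins and Alas2. Per 1000 TPM of alpha globin, Rhag was 10.2 TPM in wild-type against 14.6 TPM in Tug1-/- spleen, Klf1 was 12.0 and 15.7 TPM, and Slc4a1 was 77.1 and 90.7 TPM. For the other members this value differed less between the genotypes, with Alas2 at 143 and 149 TPM, Tfrc at 22.3 and 23.9 TPM, and Epor at 6.71 and 6.80 TPM per 1000 TPM.

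**Figure D1:**
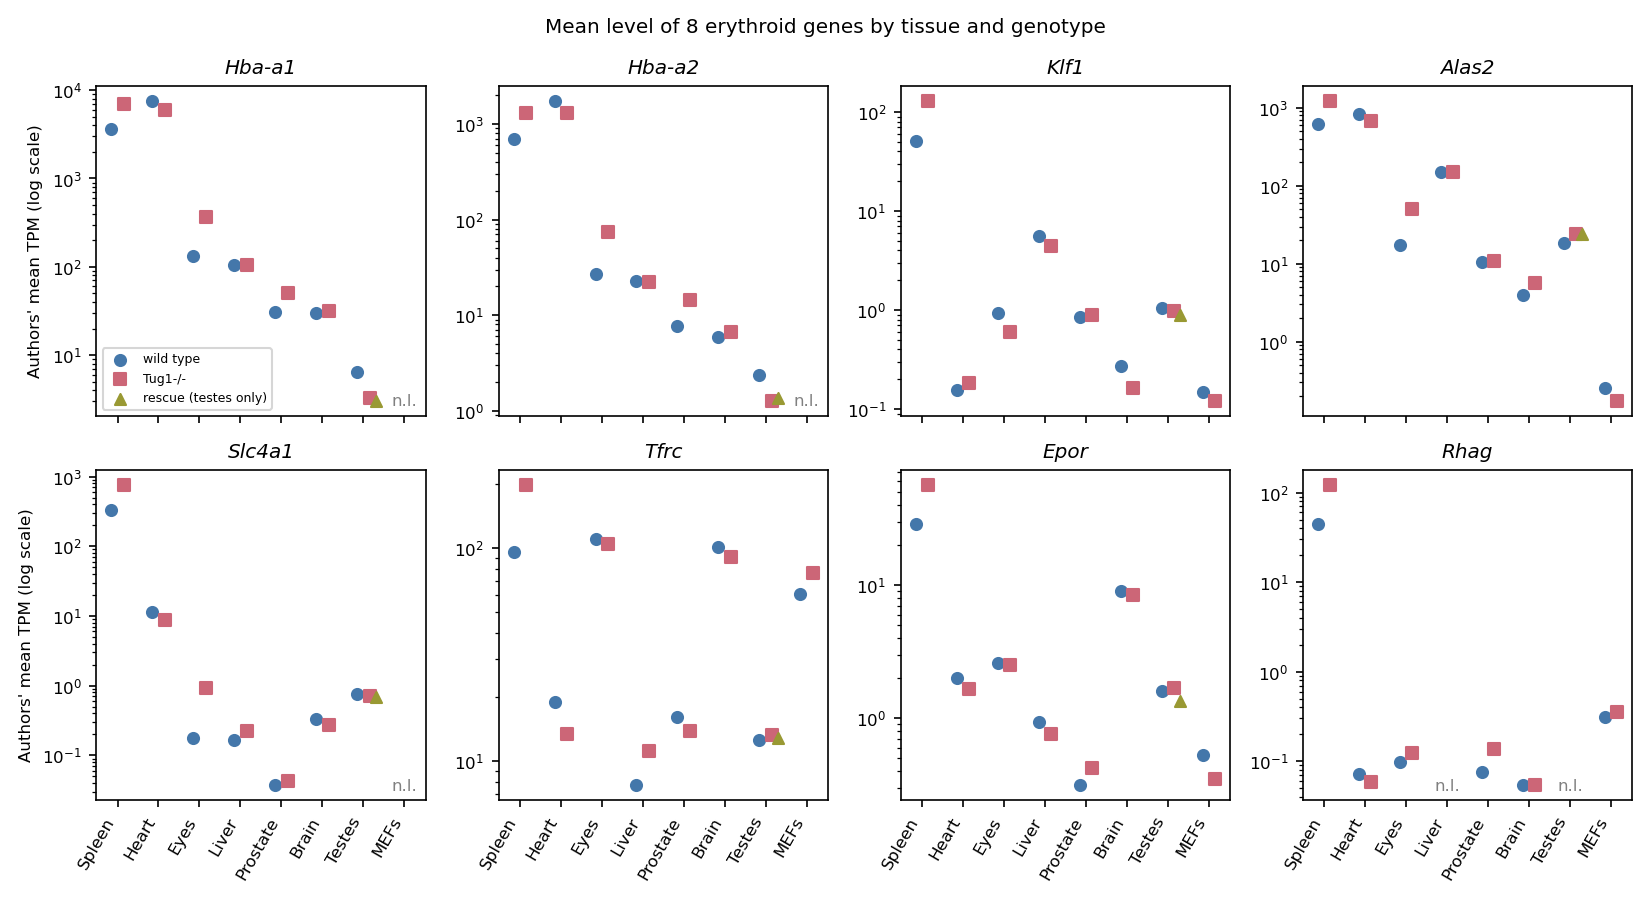
Authors' mean TPM of each of the 8 erythroid genes (1 panel per gene, log scale on the vertical axis, ranges differ between panels) by tissue, for wild type (circles), Tug1-/- (squares) and, in testes, rescue (triangles); n.l. marks a tissue in which the gene is not listed. The Tug1-/- point lies above the wild-type point in spleen in all 8 panels, for Rhag at 120.2 against 44.1 TPM, and below it in heart for both alpha globins; each point is 1 mean, with no error in the columns used.

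Genes of the erythroid programme outside the 8 were read from 7 lists with 62 genes in all. Of the 58 with at least 1 TPM in spleen, 38 were past the fold limit on the higher side and 0 on the lower side, with a median log2 ratio of 0.82. The lists were drawn up with earlier results of these data known, so these counts describe the libraries and are no independent evidence of a direction. Most genes of red cell structure, haem synthesis and erythroid regulation were past the limit, and most genes of iron handling and erythropoietin signalling were not.

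Among the other globins, Hbb-bs and Hbb-bt, the adult beta globins, had ratios of 1.76 (15293 to 26982 TPM) and 1.78 (4672 to 8296 TPM), and 2 of 3 genes of the list with at least 1 TPM were past the limit. Among 10 haem synthesis genes 8 were past it, among them the pathway enzyme gene Cpox at 2.15 (74.7 to 161 TPM), with Fech, which inserts the iron, at 1.91 (146 to 280.0 TPM) and Uros at 1.73 (26.5 to 45.9 TPM). Alas1, the form of the first enzyme that other cells use, had means of 17.1 and 14.95 TPM. Within haem synthesis the housekeeping form of the first step was therefore not past the limit, in contrast to Alas2.

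Of 12 membrane and skeleton genes, 11 were past the limit, with a median ratio of 2.26. The blood group protein gene Kel stood at 2.52 (39.8 to 100.6 TPM), the adducin gene Add2 at 2.49 (10.4 to 25.9 TPM), Ermap at 2.45 (45.8 to 112 TPM) and Rhd, whose protein is in the complex with Rhag, at 2.37 (90.1 to 213 TPM). These ratios lay near those of Slc4a1 and Rhag. All 8 genes of late erythroid cells were past the limit, at a median of 2.30, among them Hemgn at 2.61 (81.6 to 213 TPM), Cldn13 at 2.34 (70.0 to 164 TPM), Trim10 at 2.32 (98.2 to 228 TPM) and Trim58 at 2.31 (11.9 to 27.7 TPM).

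Of 7 erythroid transcription factor genes, 5 were past the limit. Gfi1b, a repressor needed for red cell and megakaryocyte formation, stood at 2.71 (15.2 to 41.2 TPM), Tal1 at 2.44 (29.1 to 71.2 TPM), Gata1, the main GATA factor of these cells, at 2.28 (23.3 to 53.3 TPM) and Nfe2 at 1.99 (29.9 to 59.4 TPM). Gata2, which is used earlier in blood formation, and Lmo2, which other blood cells also express, had ratios of 1.06 and 1.11.

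Of 9 iron handling genes, 3 were past the limit and the median ratio was 1.02. They were Tfr2, the second transferrin receptor, at 2.80 (3.86 to 10.98 TPM), Erfe, the hormone by which erythroblasts lower hepcidin, at 2.30 (0.553 to 1.40 TPM), and Steap3, the ferrireductase of erythroid endosomes, at 2.15 (6.80 to 14.7 TPM). The ferritin genes Fth1 and Ftl1, which all iron-storing cells use, both had a ratio of 1.02. Of 9 erythropoietin signalling genes with at least 1 TPM, 1 was past the limit, Bcl2l1, which encodes the survival protein Bcl-xL, at 1.73 (29.6 to 51.2 TPM). The kinase gene Jak2, which acts directly below Epor, had means of 108 and 109 TPM. The other iron handling genes had ratios between 0.889 and 1.33, and the other signalling genes between 0.875 and 1.18, all nearer to 1 than any of the 8 erythroid genes.

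Markers of other cell types of the spleen also differed between these means. All 8 megakaryocyte and platelet genes were past the limit on the higher side (median ratio 1.91), as were all 9 neutrophil and precursor genes (median 2.87, range 1.97 to 3.39) and all 6 proliferation genes (median 1.84). Of 8 red pulp macrophage genes 1 was past it, Cd163 at 1.53, with a median of 0.963. T cell genes had a median ratio of 0.963 and B cell genes of 0.754, with a range of 0.695 to 0.806 for the latter, and 0 of 6 in either list was past the limit. The B cell markers summed to 4889 TPM in the wild-type mean and to 3666 TPM in the Tug1-/- mean. Whether these differences reflect cell make-up, and what part that had in the erythroid values, was not tested.

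The Tug1-/- spleen mean also held RNA of pancreas, an organ that lies against the spleen. All 6 acinar genes were past the limit, and they summed to 11.7 TPM in the wild-type mean and to 7060.1 TPM in that of Tug1-/- spleen. The 30 genes at least 50 times higher in the Tug1-/- mean summed to 12707 TPM, or 1.27% of the TPM of that mean. RNA of liver stood higher on the other side, in the wild-type spleen mean: all 4 liver markers were past the limit on the lower side, where 5.07% of genes were, with sums of 23.0 TPM and 1.28 TPM, and Alb, the albumin gene, had means of 16.4 and 0.0843 TPM. In how many libraries the pancreas or liver genes were high could not be told from means. What part tissue of either kind in the spleen samples had in the erythroid values was not tested.

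**Figure D2:**
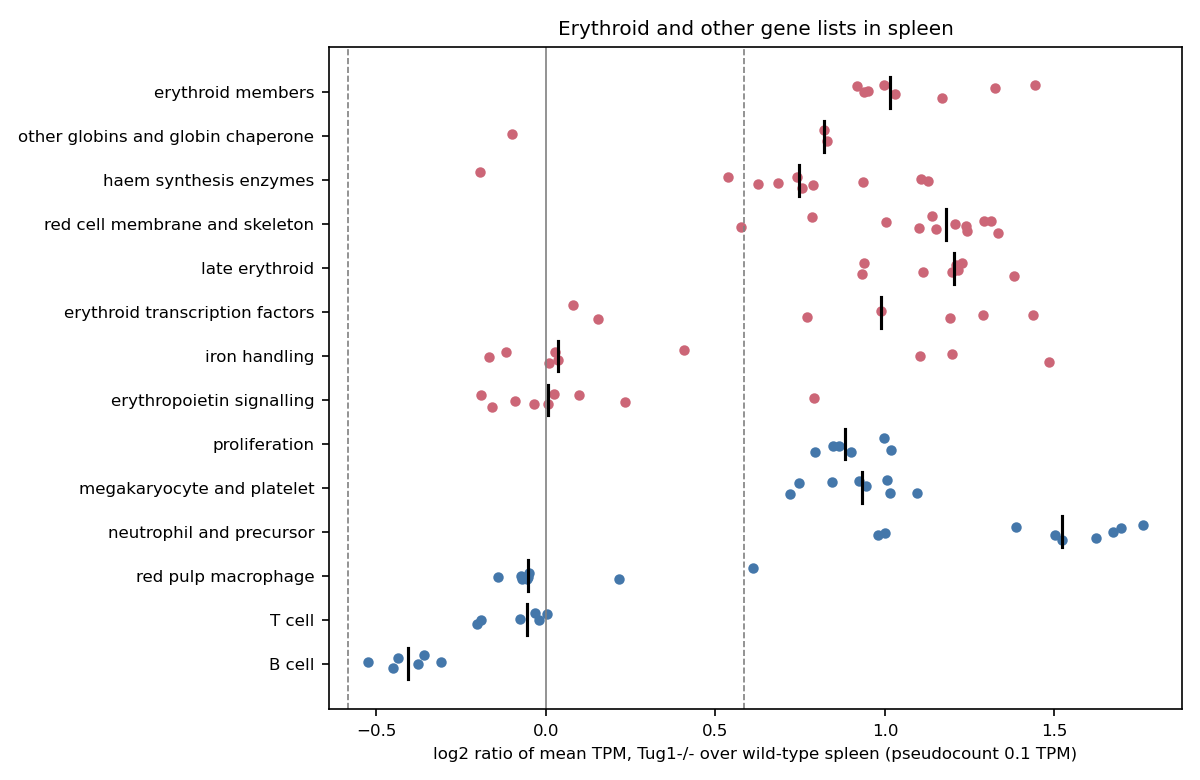
Each point is 1 gene with at least 1 TPM in spleen, placed by its log2 ratio of mean TPM, Tug1-/- over wild type (horizontal axis, 0.1 TPM added); rows are gene lists, red for the erythroid genes and lists and blue for others, black bars are list medians and dashed lines the 1.5-fold limits. The 8 erythroid genes lie between 0.92 and 1.44, beside megakaryocyte, proliferation and neutrophil genes, whereas B cell genes lie below 0.

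Across tissues, the alpha globin sum was read as a rough measure of blood RNA. In spleen, which holds red cell precursors, it also counts RNA of cells that make globin. The sum in spleen is therefore not a like measure of blood beside the other tissues. The sum of Hba-a1 and Hba-a2 in wild type was 9279 TPM in heart, 4308 TPM in spleen, 160.0 TPM in eyes, 127 TPM in liver, 38.1 TPM in prostate, 35.9 TPM in brain and, in a table normalised separately, 8.71 TPM in testes. In MEFs, which are cultured cells, neither gene was listed. In wild type the sum in heart was 2.15 times that in spleen, but in Tug1-/- mice it was 0.887 times that in spleen. Over all tissues and genotypes with a value, Hba-a1 held 68.8% (rescue testes) to 84.1% (Tug1-/- spleen) of the sum.

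The direction of the alpha globin ratio differed between tissues. With nothing added to the sums, the Tug1-/- sum was 1.91-fold of wild type in spleen, 2.78-fold in eyes and 1.70-fold in prostate, but 0.787-fold in heart and 0.522-fold in testes. It was 0.996-fold in liver and 1.07-fold in brain. The ratio in eyes was further from 1 than that in spleen, and the ratio in testes was about as far from 1, on the lower side.

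In eyes, both alpha globins had ratios of 2.78, Hba-a1 with means of 133 and 371 TPM and Hba-a2 with 26.9 and 74.8 TPM. Alas2 had means of 17.5 and 49.6 TPM, a ratio of 2.82. These 3, of 5 members with at least 1 TPM in eyes, were past the fold limit, where 628 of 19709 genes (3.19%) were past it on the higher side. The other members at this level were not past it, with Tfrc at 110.1 and 104 TPM and Epor at 2.62 and 2.50 TPM. Slc4a1 had means of 0.180 and 0.912 TPM, Klf1 of 0.932 and 0.604 TPM and Rhag of 0.0984 and 0.123 TPM, all under 1 TPM. These low members did not share 1 direction, and the eye values of Klf1 rested on few reads. Hbb-bs and Hbb-bt had eye ratios of 3.18 and 3.49. Beside them, 4 neutrophil genes were past the limit on the higher side and 1 on the lower side (4.68% of all genes), of 5, and 3 of 5 megakaryocyte and platelet genes on the higher side. Their part in the result was not tested.

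In prostate, with 2 Tug1-/- samples, 2 of 4 members with at least 1 TPM were past the limit, where 827 of 15547 genes (5.32%) were past it on the higher side. They were Hba-a1, with means of 30.4 and 50.2 TPM and a ratio of 1.65, and Hba-a2, with 7.67 and 14.6 TPM and a ratio of 1.89. Alas2, at 10.4 and 10.8 TPM, did not share this difference. Tfrc had means of 16.2 and 13.8 TPM, and Klf1, at 0.860 and 0.899 TPM, Epor, at 0.314 and 0.421 TPM, Rhag, at 0.0750 and 0.138 TPM, and Slc4a1 were all under 1 TPM. Of 7 genes of the list for red pulp macrophages, a cell type of the spleen, 5 were past the limit on the higher side in prostate. Their part in the globin values was not tested.

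In heart 0 of 6 members with at least 1 TPM were past the limit in either direction, and all 6 had a ratio below 1. Hba-a1 had means of 7545 TPM (wild type) and 6012 TPM (Tug1-/-), a ratio of 0.80, and Hba-a2 of 1734 and 1292 TPM, a ratio of 0.74. Alas2 had 826 and 686 TPM, Slc4a1 11.4 and 8.76 TPM, Tfrc 19.0 and 13.4 TPM and Epor 2.02 and 1.65 TPM. The heart thus held alpha globin RNA at a level near or above that of the spleen but little RNA of Klf1 and Rhag, with Klf1 at 0.157 and 0.185 TPM and Rhag at 0.0718 and 0.0583 TPM. All 6 B cell markers were past the limit on the lower side in Tug1-/- heart, with a median ratio of 0.455, where 348 of 14004 genes (2.49%) were past it on that side. Of 7 macrophage markers, 2 were past it on the higher side, where 2.08% of genes were, and all 7 had a ratio above 1 (median 1.43). The part of either list in the globin values was not tested.

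In liver the 5 members with at least 1 TPM had ratios between 0.794 and 1.44. Hba-a1 had a mean of 104 TPM in both genotypes, Hba-a2 of 22.9 and 22.4 TPM, and Alas2 of 151 TPM in both. Klf1 had means of 5.58 and 4.41 TPM, the highest level of this gene outside spleen, and Rhag was not listed. Tfrc, at 7.70 and 11.2 TPM (ratio 1.44), Epor, at 0.943 and 0.757 TPM, and Slc4a1, at 0.164 and 0.220 TPM, completed the members listed in liver. In brain the 5 members with at least 1 TPM had ratios between 0.897 and 1.39. There Tfrc was high at 101.4 and 90.9 TPM and Epor stood at 9.02 and 8.36 TPM, its highest level outside spleen. Hba-a1 was 30.0 and 31.8 TPM, Hba-a2 5.86 and 6.69 TPM and Alas2 4.01 and 5.59 TPM. Under 1 TPM in brain were Slc4a1, at 0.338 and 0.275 TPM, Klf1, at 0.274 and 0.164 TPM, and Rhag, at 0.0536 and 0.0538 TPM. Such low values rested on few reads, with a mean normalised count of 0.568 for Rhag in brain and of 15.9 for Klf1 in eyes.

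In MEFs Tfrc alone reached 1 TPM, at 60.6 and 76.4 TPM. Epor, at 0.528 and 0.349 TPM, Rhag, at 0.315 and 0.353 TPM, Alas2, at 0.251 and 0.172 TPM, and Klf1, at 0.149 and 0.120 TPM, were listed at low levels, and Slc4a1 was not listed. Tfrc is carried by dividing cells of many kinds, and its level did not follow alpha globin across tissues.

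In testes, where the wild-type and Tug1-/- mice also differ in the Neo label, Hba-a1 and Hba-a2 were past the limit on the lower side and no other member was, 2 of 6 with at least 1 TPM, where 786 of 22378 genes (3.51%) were past it on that side. Hba-a1 had means of 6.36 TPM (wild type), 3.28 TPM (Tug1-/-) and 3.01 TPM (rescue), and Hba-a2 of 2.35, 1.27 and 1.37 TPM. The rescue mean thus lay beside the Tug1-/- mean, with an alpha globin sum 0.963 times that of Tug1-/-. Alas2, at 18.3, 23.9 and 23.9 TPM, Tfrc, at 12.5, 13.3 and 12.9 TPM, Epor, at 1.62, 1.68 and 1.36 TPM, and Klf1, at 1.04, 0.972 and 0.889 TPM, were not past the limit. Slc4a1 had means of 0.748, 0.712 and 0.678 TPM, and Rhag was not listed. For rescue over Tug1-/- testes, the 5 members with at least 1 TPM had ratios between 0.818 and 1.08. The beta globins were past it with the alpha globins, Hbb-bs at 0.555 (16.6, 9.18 and 9.66 TPM in wild type, Tug1-/- and rescue) and Hbb-bt at 0.559 (3.71, 2.03 and 1.63 TPM). On the higher side, where 2.75% of genes were past the limit, stood 2 of 7 macrophage, 1 of 4 megakaryocyte and platelet and 1 of 2 neutrophil genes with at least 1 TPM. Neutrophil genes summed to 6.73 TPM in the wild-type mean, 35.4 TPM in that of Tug1-/- and 3.70 TPM in that of rescue testes. Their part in the globin values was not tested.

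Relative to alpha globin, the members fell into different patterns. Alas2 was 143 and 149 TPM per 1000 TPM of alpha globin in wild-type and Tug1-/- spleen, 89.0 and 93.9 TPM in heart, and 110 and 111 TPM in eyes. In brain it was 112 and 145 TPM, and in prostate 273 and 167 TPM. In liver Alas2 stood at 1195 and 1196 TPM per 1000 TPM, and in testes at 2095 TPM (wild type), 5254 TPM (Tug1-/-) and 5467 TPM (rescue), the highest values of the 7 tissues.

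Slc4a1, Klf1 and Rhag differed widely between tissues on this scale. Slc4a1 was 77.1 TPM per 1000 TPM of alpha globin in wild-type spleen but 1.23 TPM in heart, 1.13 TPM in eyes, 1.29 TPM in liver, 0.970 TPM in prostate and 9.42 TPM in brain. In testes, where alpha globin was lowest, it was 85.8 TPM in wild type, above spleen. Klf1 was 12.0 TPM per 1000 TPM in wild-type spleen and 0.0169 TPM in heart, with 5.82 TPM in eyes and 7.64 TPM in brain, but in wild type it was higher than in spleen in prostate (22.6 TPM), liver (44.1 TPM) and testes (119.8 TPM). A high value of Klf1 against alpha globin was thus not particular to spleen, with liver at 5.58 TPM of Klf1 in wild type. The wild-type values of Slc4a1 in testes (0.748 TPM) and of Klf1 in prostate (0.860 TPM) and testes (1.04 TPM) rest on levels near or under 1 TPM. Rhag was 10.2 TPM per 1000 TPM in wild-type spleen, 0.00774 TPM in heart, 0.615 TPM in eyes, 1.49 TPM in brain and 1.97 TPM in prostate. Heart had the lowest Klf1 and Rhag values of the tissues, in both genotypes.

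**Figure D3:**
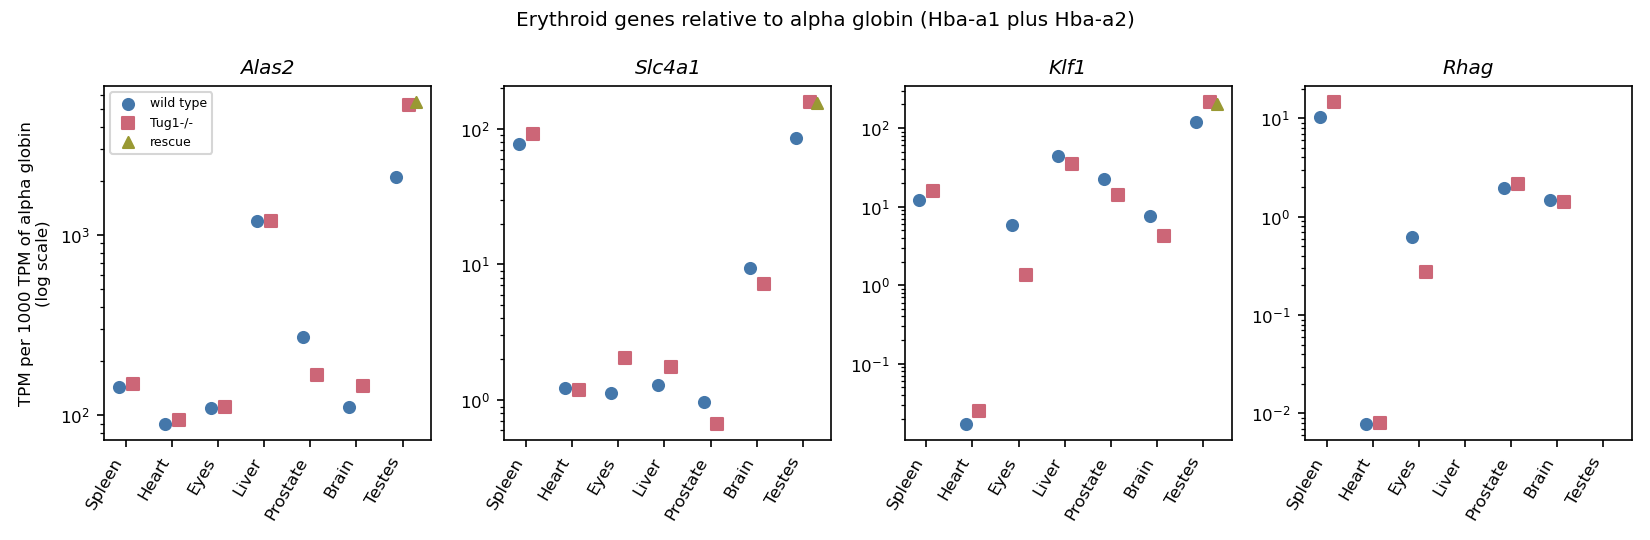
Level of Alas2, Slc4a1, Klf1 and Rhag in TPM per 1000 TPM of alpha globin (log scale, ranges differ between panels), by tissue, for wild type (circles), Tug1-/- (squares) and rescue (triangles, testes); a missing point means the gene is not listed. Slc4a1, Klf1 and Rhag are far lower in heart than in spleen, Rhag at 0.00774 against 10.2 TPM in wild type. Slc4a1 and Klf1 are higher still in testes, and in wild type Klf1 is also higher in liver and prostate. The levels of Slc4a1 and Klf1 in testes and of Klf1 in prostate are near or under 1 TPM, and testes was normalised separately.

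Genes whose pattern over the 14 means of the tissues other than testes was most like that of Hba-a1 or Klf1 were ranked by Pearson's r of log2(TPM + 0.1) among 24787 genes, with a gene not listed in a tissue taken as 0, as a description, since wild-type and Tug1-/- means of a tissue share its make-up. Closest to Hba-a1 were Hbb-bs (r = 0.996) and Hbb-bt (r = 0.995), followed by Pecam1 and Slfn5 (both 0.979) and Mmrn2 (0.976). Hba-a1 was itself not listed in MEFs, and over the 12 means in which it was listed r was 0.997 for Hbb-bs, 0.994 for Hbb-bt, 0.945 for Pecam1, 0.944 for Slfn5 and 0.937 for Mmrn2. The beta globins, which are made in balance with alpha globin, had the highest r of these 5 either way. Closest to Klf1 were Ocstamp (0.965), Gm11695 (0.964), Cd1d2 (0.957), Gm13994 (0.956) and Gm43215 (0.955). Unlike Klf1, none of these 5 was past the fold limit in spleen, where Gm13994, for instance, had means of 30.7 and 26.9 TPM.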

How the data were processed

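RNA was isolated with TRIzol from snap-frozen tissues and from MEFs, and polyadenylated RNA was sequenced as 101-base paired-end reads. Per the study's methods and the submitters' processing notes, the authors aligned reads with STAR to GRCm38, used featureCounts on reads that mapped to 1 place, left out genes under 3 reads in every replicate, and compared groups with DESeq2 (base calling with CASAVA 1.8.2; other versions are not given in the sources used here). Whether counting used strand is not stated.

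The deposited values used were the authors' mean TPM of each group, and the authors' mean normalised count over all libraries of a tissue (not in the testes table). The authors made these signal values by scaling read counts and averaging them before deposit, so the columns used hold no replicate error. Testes was a separate table, normalised separately. Summed mean normalised counts were 1.76e+07 (brain) to 4.83e+07 (eyes), with 4.22e+07 in spleen. Columns of the authors' own comparisons (log2 fold changes, standard errors, statistics, p-values and significance marks) were not used. 0 columns held values of single samples. Testes labels name single mice, and the labels of other tissues do not say that samples came from separate animals.

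From the means, ratios were computed with a pseudocount of 0.1 TPM, on the log2(TPM + pseudocount) scale, which understates differences of low genes, with a minimum of 1 TPM in either group and a fold limit of 1.5. The step that computes and calls ratios was run on simulated data, wild-type spleen means with set fold changes and no noise. This checks the arithmetic only, and the counts over lists were not tested in this way. Named genes were the 8 members in every tissue, in each erythroid list up to 4 genes past the limit in spleen by size of log2 ratio (otherwise the 2 of highest level), Tug1, and the 5 genes most like Hba-a1 and Klf1. For 1 gene of this rule the values are not reported here. Alas1, Alb, Cd163, Fth1, Ftl1, Gata2, Jak2 and Lmo2, and the values of Hbb-bs and Hbb-bt in eyes and testes, were added after their values were seen. Members and lists were chosen with earlier results of these data known. Alternatives were other pseudocounts, minimums and fold limits, centred ratios, and rescaling without globin, mitochondrial or pancreas genes. Python 3.11.15, numpy 2.4.6, pandas 2.3.3 and matplotlib 3.10.9 were used.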

Additional observations from a re-analysis of the deposited data

How the results depend on the processing

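In spleen the erythroid genes kept a higher Tug1-/- mean under each alternative that gave them a value (the one without globin genes gave none for Hba-a1 and Hba-a2), with log2 ratios from 0.92 to 1.02 for Hba-a2 up to 1.43 to 1.55 for Rhag. At a fold limit of 2, however, 4 of the 8 were past it in spleen (all genes, 2.16% on the higher side), 0 in prostate (2.23%) and 0 on the lower side in testes (1.89%), and among the lists 3 erythroid transcription factors, 2 haem synthesis genes, 0 other globins and 0 erythropoietin signalling genes. At the lowest fold limit run, 4 members were past it in heart, all lower (5.01% of all genes), 2 in liver, Tfrc higher (10%) and Klf1 lower (7.52%), 1 in brain, Alas2 higher (5.03%), and 1 in MEFs, Tfrc higher (11.4%). With a pseudocount of 1 TPM, or a minimum of 5 TPM, 1 member was past the limit in testes. Without a minimum 4 other globins were past it in spleen. Centring on the median ratio, which was -0.11 on the log2 scale in spleen, -0.10 in eyes and 0.10 in heart, put 1 member past the limit in heart (Tfrc at -0.61) and turned the sign of small log2 ratios, as in eyes for Tfrc (-0.08 to 0.03) and Epor (-0.06 to 0.04). Leaving out globin genes, which removes both Hba genes by construction, left 1 member past the limit in eyes, 0 in prostate and 0 in testes. For the settings other than the fold limits no share of all genes is given here, so these counts show only which calls moved. In all, 104 recomputed summary values stayed close to those reported and the 18 counts named here did not. Some of the 104 still changed slightly. At the lowest fold limit Alas2 was also past it in testes, on the higher side (ratio 1.31), unlike the globins. Without a minimum Slc4a1 was also past the limit in eyes, on the higher side. No paired analysis was possible because the columns used hold group means without replicate numbers, and for the same reason no replicate could be left out. Leaving out the 30 genes of the pancreas pattern, an alternative chosen after seeing the data, shifts all other spleen ratios alike. Group means hide how mice vary and whether 1 library carries a difference.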
